A study of Mus musculus with 32 samples.

Results

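The genes described here encode cathepsins and other proteins of the lysosome. They were taken by gene symbol from a list of 47 genes, with no threshold on their values. Of these, 44 carried a probe with that symbol, 1 probe each, among 19505 genes tested, and Cd68, Glb1 and Ctsd are not analysed here. RNA was measured on 32 arrays in 8 groups of 4. The injured spinal cord groups were taken 1, 3 and 7 days after spinal cord photothrombosis (scPT in the labels) and are set against spinal cord controls. The injured cerebral groups were taken 1, 3 and 7 days after cerebral photothrombosis (cPT) and are set against cerebral controls. Photothrombosis clots the vessels of an illuminated area by exciting a circulating photosensitiser. Mice of every group were male wild-type C57BL/6J, 6 to 12 weeks old and 20 to 25 g at the start, and no transgene or drug is named. Neither the treatment of the controls nor the stretch of tissue taken around a lesion is stated in the labels.

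Lysosomes are acidic vesicles that break down protein, lipid and glycan, whether taken up from outside the cell or delivered by autophagy. Cathepsins are their proteases, most of them cysteine proteases that mature from inactive precursors at low pH, and a vacuolar proton pump keeps that pH low. In brain and spinal cord, lysosomal genes are abundant in microglia and macrophages, which clear myelin and dead cells after injury, and inherited loss of a lysosomal enzyme often damages neurons or myelin. TFEB, MITF, TFE3 and TFEC form 1 family of transcription factors, of which TFEB, TFE3 and MITF bind CACGTG-type sites in promoters of lysosomal genes. PU.1, a factor of the myeloid lineage, binds sites built around GAGGAA.

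Values are on the log2 scale and were centred per probe before deposition, so they give differences between arrays and carry no level. A value printed for 1 array is its difference from the mean of the 4 controls of the same tissue. A gene is called higher or lower where the test of limma gave a Benjamini-Hochberg adjusted p under 0.05 over all genes, and ± marks the standard error of a change. Changes from control at day 3 and day 7 had to exceed a bound, of at least 0.162 at day 3 and 0.178 at day 7, because those days were centred apart. Statements that all arrays of a group lay above or below its controls do not apply this bound. The p-values measure the spread between the 4 arrays of a group, pooled for each gene over the 8 groups. With 4 arrays a group the precision is limited, and the spread may be partly technical, since separate animals are not stated. The median SD of the 44 genes within a group was 0.138 at cerebral day 1 and 0.256 at spinal day 3. Replicate 1 of that group had an array weight of 0.225 and lay away from all other arrays. Titles of each group use a number block of their own, and those of spinal day 7 a different prefix, so a batch marked that way and the group cannot be told apart. Of 6 measured oligodendrocyte markers, 6 were higher in spinal than in cerebral controls (17.2% of all genes), by 1.71 to 3.38. Skeletal muscle markers were also higher there, 6 of 6, and their mean stood at 1.82, 1.20, -0.83 and -2.20 in the 4 spinal controls and between -2.66 and -0.96 on the injured spinal arrays.

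Promoters from RefSeq (GRCm38.p6, from 250 bases before to 50 bases after a transcript start) were available for 36 of the 44 genes. CACGTG, searched on both strands, occurred in 11 of these 36 genes (30.6%) and in 9.26% of the 15691 tested genes with a promoter. Its longer form TCACGTGA, which contains CACGTG, occurred in 4 (11.1%), Ctsa, Mcoln1, Gla and Atp6v1a, and in 1.45% of the tested genes. GAGGAAGT, a PU.1-type form, occurred in 4 (11.1%), Gla, Gusb, Ctss and Ctsc, and in 3.53% of the tested genes. Among 41 genes of the further lists described below, CACGTG occurred in 29.3%, TCACGTGA in 17.1% and GAGGAAGT in 2.44%. The first 4 promoters are shown because they hold TCACGTGA, and those of Gusb, Ctss and Ctsc were added after their values were seen, because they hold GAGGAAGT. Capitals mark CACGTG, TCACGTGA and ACTTCCTC, the reverse complement of GAGGAAGT. The windows are Ctsa at chr2:164833523-164833822 (+ strand), Mcoln1 at chr8:3500269-3500568 (+), Gla at chrX:134600956-134601255 (- strand), Atp6v1a at chr16:44139210-44139509 (-), Gusb at chr5:130003000-130003299 (-), Ctss at chr3:95526536-95526835 (+) and Ctsc at chr7:88277835-88278134 (+), each read 5′ to 3′ along its gene.
Ctsa: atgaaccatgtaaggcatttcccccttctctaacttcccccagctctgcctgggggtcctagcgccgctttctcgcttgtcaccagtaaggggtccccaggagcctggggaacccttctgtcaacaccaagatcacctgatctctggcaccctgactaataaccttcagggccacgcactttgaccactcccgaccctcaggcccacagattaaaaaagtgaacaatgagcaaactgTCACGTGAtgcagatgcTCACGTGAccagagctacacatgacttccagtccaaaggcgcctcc
Mcoln1: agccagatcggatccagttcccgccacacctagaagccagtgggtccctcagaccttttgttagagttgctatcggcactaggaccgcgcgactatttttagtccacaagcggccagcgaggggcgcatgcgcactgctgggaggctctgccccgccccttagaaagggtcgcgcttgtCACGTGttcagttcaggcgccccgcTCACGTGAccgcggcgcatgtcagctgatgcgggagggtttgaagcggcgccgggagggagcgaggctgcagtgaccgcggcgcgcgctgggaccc
Gla: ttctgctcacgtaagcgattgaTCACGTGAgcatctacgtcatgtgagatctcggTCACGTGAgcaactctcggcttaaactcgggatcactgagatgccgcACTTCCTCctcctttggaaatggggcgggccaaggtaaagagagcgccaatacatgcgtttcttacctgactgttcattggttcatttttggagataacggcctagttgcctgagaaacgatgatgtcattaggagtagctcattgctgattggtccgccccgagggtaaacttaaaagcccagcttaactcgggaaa
Atp6v1a: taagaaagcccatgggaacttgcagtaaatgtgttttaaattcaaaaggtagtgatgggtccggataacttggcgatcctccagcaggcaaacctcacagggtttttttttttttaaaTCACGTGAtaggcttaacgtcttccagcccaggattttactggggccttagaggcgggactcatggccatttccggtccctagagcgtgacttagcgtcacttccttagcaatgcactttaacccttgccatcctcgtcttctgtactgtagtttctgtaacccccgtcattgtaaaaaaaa
Gusb: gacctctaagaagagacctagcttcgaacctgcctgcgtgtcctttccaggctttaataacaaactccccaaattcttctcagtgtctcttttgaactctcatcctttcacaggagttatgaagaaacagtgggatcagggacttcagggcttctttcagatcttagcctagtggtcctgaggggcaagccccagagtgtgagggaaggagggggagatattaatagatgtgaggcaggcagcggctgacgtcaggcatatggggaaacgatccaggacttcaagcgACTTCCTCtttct
Ctss: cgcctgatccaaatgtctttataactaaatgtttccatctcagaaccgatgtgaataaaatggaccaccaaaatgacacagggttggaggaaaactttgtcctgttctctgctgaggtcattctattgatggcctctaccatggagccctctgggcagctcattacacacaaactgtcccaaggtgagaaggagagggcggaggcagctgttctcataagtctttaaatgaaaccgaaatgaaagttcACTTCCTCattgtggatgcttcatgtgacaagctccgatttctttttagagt
Ctsc: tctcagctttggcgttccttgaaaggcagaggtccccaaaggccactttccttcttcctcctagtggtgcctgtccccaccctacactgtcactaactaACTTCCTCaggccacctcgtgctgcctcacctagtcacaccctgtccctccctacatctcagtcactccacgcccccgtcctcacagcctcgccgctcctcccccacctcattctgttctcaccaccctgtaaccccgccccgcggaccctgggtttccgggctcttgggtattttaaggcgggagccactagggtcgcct

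The 2 copies of TCACGTGA in the Ctsa promoter lie across the transcript start, and those of Gla lie 228 and 195 bases before it. In Mcoln1 the site lies 46 bases before the start and in Atp6v1a 132 bases before it. ACTTCCTC lies 148 bases before the start in Gla, 2 bases before it in Ctss, 151 bases before it in Ctsc and 37 bases after it in Gusb. A match is a description of these letters and does not show that a factor bound there.

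Lysosomal genes were higher in both tissues 7 days after injury. In the spinal cord, 35 of the 44 were called higher (15.2% of all genes) at day 7, and limma called 0 lower (16.6%), also at an unadjusted p under 0.05. In the cerebrum, 24 were called higher (4.5% of all genes) at day 7 and 0 lower (2.09%), again also at an unadjusted p under 0.05. The median change of the 44 genes was 1.66 in spinal cord and 0.801 in cerebrum, beside medians of -0.0962 and -0.0541 over all genes. Quantile normalisation gave medians of 0.883 in spinal cord, with 28 calls, and 0.907 in cerebrum, with 25 calls, so the order of the tissues depends on the scaling. The 4 day 7 arrays lay above all 4 controls for 38 genes in spinal cord (19% of all genes) and for 32 in cerebrum (14%). This order of arrays does not apply the bound of the test, so it can arise within the uncertainty of the separate centring. In bulk tissue, more cells of a type and more RNA per cell cannot be told apart.

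The first days differed from this picture, and differed between the tissues. At cerebral day 1, 24 genes were called higher (8.91% of all genes) and 1, Mcoln1, lower (8.22%), with a median of 0.425. At spinal day 1, 15 were called higher (15.8%) and 5 lower (16.1%), with a median change of 0.00322. At spinal day 3, 21 were called higher (10.3%) and 0 lower (9.64%) by limma, with 2 lower at an unadjusted p under 0.05, and at cerebral day 3, 15 were called higher (3.49%) and 0 lower (2.85%), also unadjusted. Medians at day 3 were 0.363 in spinal cord and 0.388 in cerebrum. Without spinal day 3 replicate 1, the spinal day 3 calls were 20 higher and 1, Atp6v1a (-0.53, limma adjusted p = 0.0359), lower. Taking the rebuilt offset between the parts as exact would give 24 calls at cerebral day 3. Higher at all 3 days were 12 genes in spinal cord and 14 in cerebrum, and 5 genes in spinal cord and 15 in cerebrum passed at no day. Over all genes, the share higher at all 3 days can be at most the lowest daily share, 10.3% in spinal cord and 3.49% in cerebrum. The highest of the 3 changes was that of day 7 for 37 of the 44 genes in spinal cord and 31 in cerebrum. Shares over all genes are not given here for passing at no day or for a highest change at day 7. Leaving out each array in turn kept all 35 calls at spinal day 7 and 23 of 24 at cerebral day 7, 17 of 21 and 12 of 15 at day 3, and 16 of 20 and 20 of 25 at day 1.

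**Figure D1:**
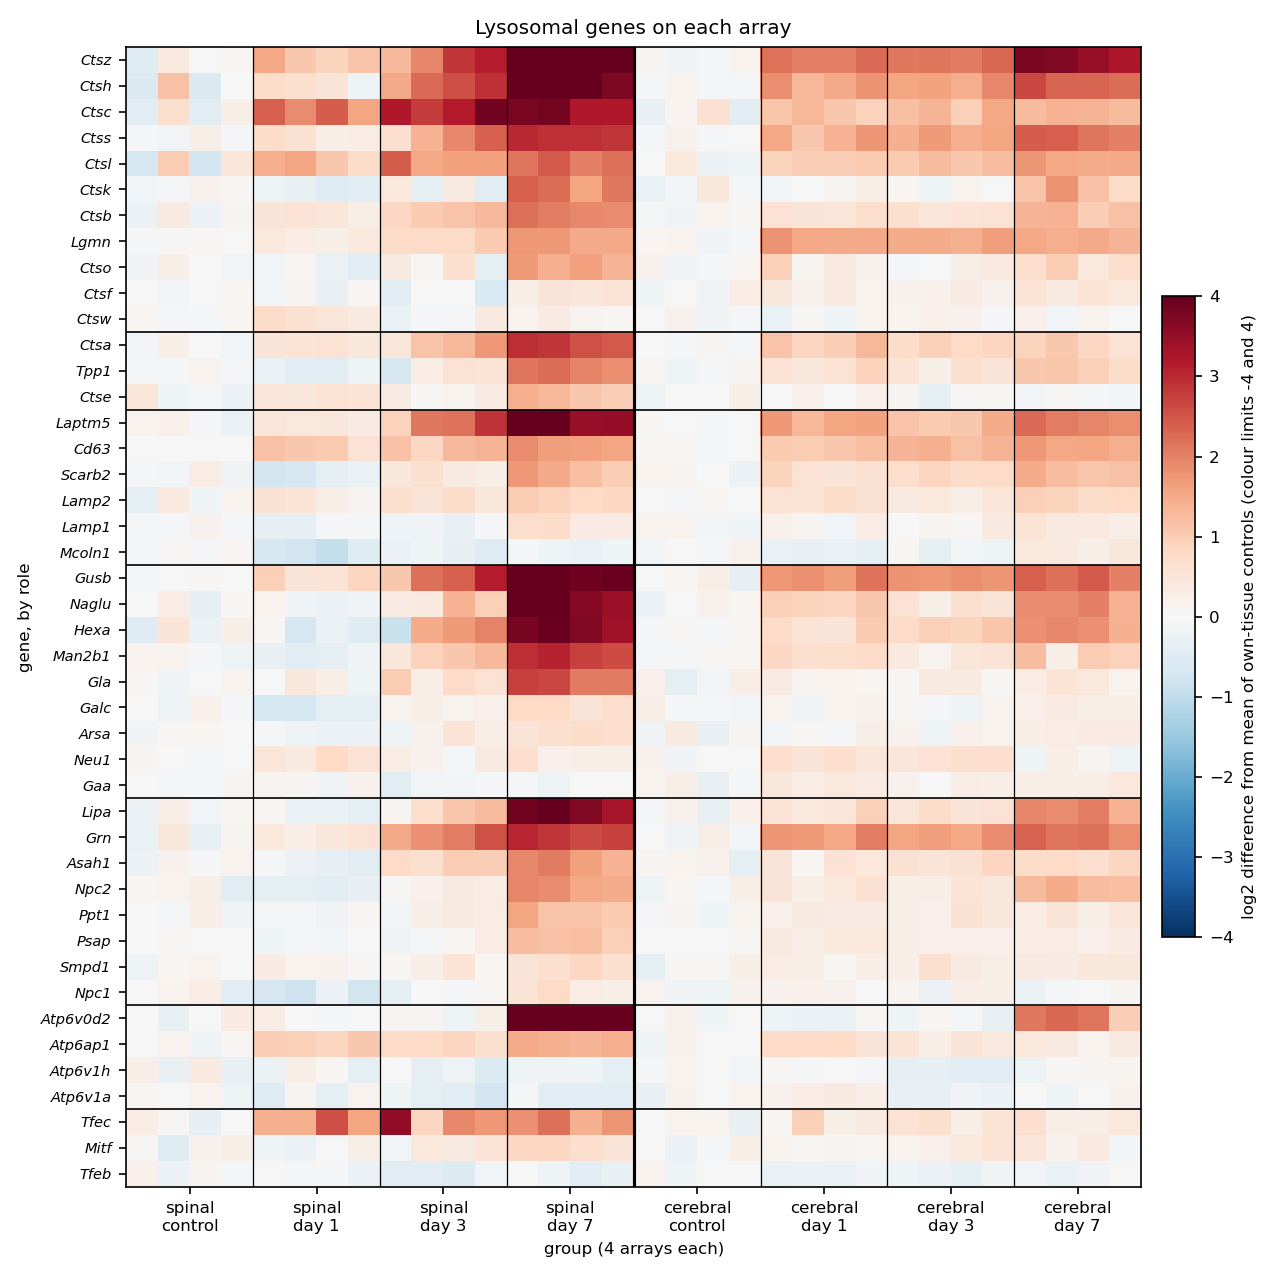
Log2 difference of each of 44 lysosomal genes (rows, by role) from the mean of the 4 controls of the same tissue, on each of 32 arrays (columns, 4 a group, spinal cord left of cerebrum), with colours limited to -4 and 4. The spinal day 7 block holds the darkest reds, Ctsz, Ctsh, Gusb and Atp6v0d2 among them, and the spinal day 1 block holds blue rows such as Mcoln1, Galc and Npc1.

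Monocyte and macrophage markers rose over the same days, microglia markers less evenly, and their part in the results was not tested. Of 8 monocyte and macrophage markers, 8 were called higher at spinal day 7 and at spinal day 3 and 2 at spinal day 1, while 5 were called higher at each cerebral day. Their mean over the 8 genes ran over the 4 arrays from 0.343 to 0.692 at spinal day 1, 1.8 to 3.44 at day 3 and 3.59 to 4.27 at day 7. In cerebrum it ran from 1.26 to 1.58 at day 1, 1.57 to 1.86 at day 3 and 1.96 to 2.58 at day 7. Of 8 microglia markers, 2 were higher and 3 lower at spinal day 1. P2ry12, a purinergic receptor of surveying microglia, stood there at -2.23 and Siglech, a sialic acid receptor of microglia, at -1.81. Called higher were 3 of the 8 at spinal day 3 and 4 at spinal day 7, and 4, 3 and 4 at cerebral day 1, 3 and 7. On these other days limma called 0 lower, with 1 lower at an unadjusted p under 0.05 at spinal day 3 and at spinal day 7. The microglia mean stood between -0.515 and -0.172 on the spinal day 1 arrays and between 0.882 and 1.16 on the cerebral day 1 arrays. At spinal day 3 the microglia mean was 1.39, 1.14 and 1.48 on replicates 2 to 4 and -0.207 on replicate 1. At cerebral day 1, 6 of 6 astrocyte and 5 of 6 oligodendrocyte markers were also higher, and 5 of 6 hypothalamus and pituitary markers lower. Hypothalamus and pituitary markers were also lower at cerebral day 3, 3 of 6, and at cerebral day 7, 2 of 6. Other cell types moved as well at spinal day 7, with 4 of 5 fibroblast markers and 5 of 7 neutrophil markers higher and 5 of 6 neuron markers lower. At cerebral day 7, 3 of 5 fibroblast and 3 of 6 astrocyte markers were higher. Over all genes, 15.8%, 10.3% and 15.2% were called higher at spinal day 1, 3 and 7, and 8.91%, 3.49% and 4.5% in cerebrum. Called lower were 16.1%, 9.64% and 16.6% in spinal cord and 8.22%, 2.85% and 2.09% in cerebrum. Since the values carry no level, no marker can be read as absent from a tissue.

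**Figure D2:**
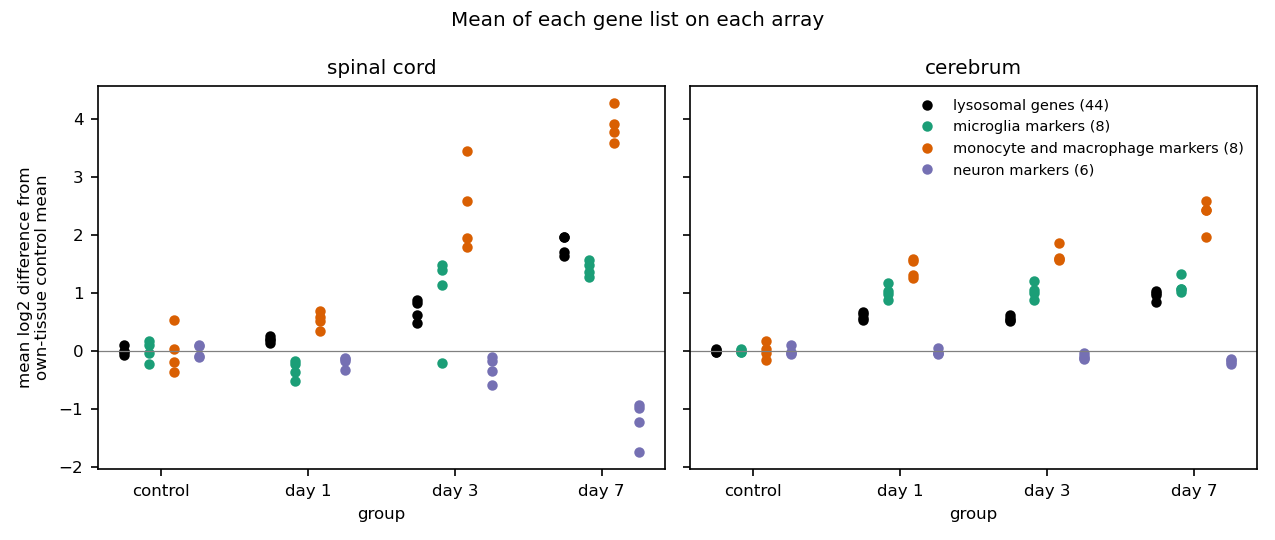
Mean log2 difference from the controls of the same tissue over 44 lysosomal genes, 8 microglia markers, 8 monocyte and macrophage markers and 6 neuron markers, 1 point per array, for control, day 1, day 3 and day 7 in spinal cord (left) and cerebrum (right). In spinal cord the macrophage markers reach 3.59 to 4.27 at day 7 and the neuron markers -1.74 to -0.936, and the microglia markers lie below 0 on all 4 arrays of day 1.

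Of the 11 cysteine proteases, that is 10 cathepsins and legumain, 9 were higher at day 7 in spinal cord (15.2% of all genes) and 9 in cerebrum (4.5%). At day 1 and day 3 the counts were 6 and 7 in spinal cord (15.8% and 10.3% of all genes) and 7 and 7 in cerebrum (8.91% and 3.49%). Against control, limma called 0 lower on any of the 3 days in either tissue, also at an unadjusted p under 0.05. Over all genes the shares called lower ran from 2.09% to 16.6%.

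Ctsz encodes cathepsin Z, a lysosomal carboxypeptidase, and had the largest day 7 change of the group in both tissues. At day 7 it stood at 4.97, 5.02, 4.70 and 4.62 on the spinal arrays, against -0.50, 0.39, 0.02 and 0.09 in the spinal controls. At day 7 in cerebrum it stood at 3.75, 3.71, 3.49 and 3.22, against 0.10, -0.15, -0.09 and 0.14 in the cerebral controls. In both tissues the groups lay far apart, and the fold change was 28.4 in spinal cord (4.83 ± 0.24, limma adjusted p = 2.24e-16) and 11.7 in cerebrum (3.54 ± 0.24, limma adjusted p = 3.57e-12). At day 1 the change was 1.16 ± 0.24 in spinal cord and 2.12 ± 0.24 in cerebrum.

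Ctsh, the aminopeptidase cathepsin H, stood at 4.15, 4.34, 3.98 and 3.73 on the spinal day 7 arrays, against -0.59, 1.17, -0.58 and 0.00 in the spinal controls. Spinal control replicate 2 was the high one of its group, and all day 7 arrays lay above it. At spinal day 1 the groups overlapped and the change of 0.43 ± 0.27 did not pass, while at cerebral day 1 Ctsh rose by 1.62 ± 0.27. The call at cerebral day 3 (1.64 ± 0.27) was lost without cerebral day 3 replicate 4 (1.55, limma adjusted p = 0.0588).

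Ctsc encodes dipeptidyl peptidase I, which activates granule proteases of neutrophils and cytotoxic lymphocytes, and it was ahead of the other cathepsins at spinal day 1 and day 3. It stood at 2.39, 1.90, 2.42 and 1.57 on the spinal day 1 arrays and 3.19, 2.79, 3.19 and 3.87 on the spinal day 3 arrays, against -0.44, 0.65, -0.42 and 0.22 in the spinal controls. No injured array of these days came down to the controls. The change at spinal day 3 was 3.26 ± 0.24, a 9.58-fold difference (limma adjusted p = 3.18e-11), and in cerebrum Ctsc lay between 1.11 and 1.31 on all 3 days.

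Ctss, cathepsin S, trims the invariant chain for antigen presentation by MHC class II. It rose by 2.93 ± 0.20 at spinal day 7 and 2.24 ± 0.20 at cerebral day 7. At spinal day 1 its 4 arrays, at 0.25 to 0.74, lay above the controls but the change of 0.48 ± 0.20 did not pass (limma adjusted p = 0.0727). The endopeptidases Ctsb and Ctsl rose on all 3 days in both tissues, Ctsb to 2.02 ± 0.12 and Ctsl to 2.20 ± 0.25 at spinal day 7. The call of Ctsb at cerebral day 3 (0.56 ± 0.12) was lost without any 1 of cerebral control replicates 1 and 2 and cerebral day 3 replicates 1 and 4.

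Lgmn, the asparaginyl endopeptidase legumain, followed another course. In cerebrum it was at 1.79, 1.56, 1.51 and 1.52 on the day 1 arrays and changed little afterwards, with 1.60 ± 0.09 at day 1, 1.52 ± 0.09 at day 3 and 1.47 ± 0.09 at day 7. In spinal cord it climbed over the days, with 0.35 ± 0.09 at day 1, 0.84 ± 0.09 at day 3 and 1.62 ± 0.09 at day 7. Measured from the controls of its own tissue, every cerebral day 1 array stood above every spinal array of day 1 and day 3, of which the highest was 1.06. Lgmn was itself higher in spinal than in cerebral controls, so this is an order of rises and not of levels.

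Ctsk encodes cathepsin K, the collagen-degrading protease of osteoclasts. It stood at 2.39, 2.23, 1.59 and 2.11 on the spinal day 7 arrays, against -0.12, -0.09, 0.18 and 0.03 in the spinal controls, and at 1.13, 1.80, 1.16 and 0.74 on the cerebral day 7 arrays, against -0.28, -0.12, 0.45 and -0.05 in the cerebral controls. It passed at day 7 alone among the 3 days, by 2.08 ± 0.20 in spinal cord and 1.21 ± 0.20 in cerebrum, and no day 1 or day 3 array exceeded 0.42. Of 6 osteoclast markers, 2 were called higher at spinal day 7 (15.2% of all genes), Acp5 (3.37 ± 0.27) and Nfatc1, and 1 at cerebral day 7 (4.5%), Acp5. Calcr, Dcstamp, Ocstamp and Oscar did not pass at either. Of 5 measured fibroblast markers, 1, 3 and 4 were called higher at spinal day 1, 3 and 7 (15.8%, 10.3% and 15.2% of all genes). In cerebrum 0, 0 and 3 were called higher (8.91%, 3.49% and 4.5%). The part of either cell type was not tested.

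Ctso, a widely expressed cathepsin, was higher at day 7 in spinal cord (1.54 ± 0.18) and in cerebrum (0.71 ± 0.18). The cerebral call was lost without any 1 of cerebral control replicates 2 to 4 and cerebral day 7 replicates 1, 2 and 4. Ctsf stood at 0.45 ± 0.12 at spinal day 7 (limma adjusted p = 0.0562) and 0.47 ± 0.12 at cerebral day 7 (limma adjusted p = 0.126). Ctsw, a cathepsin of cytotoxic lymphocytes and natural killer cells, passed at spinal day 1, with 0.76, 0.60, 0.50 and 0.36 on the injured arrays, against 0.07, -0.09, -0.06 and 0.08 in the controls. At spinal day 3 it stood at -0.27, -0.05, -0.05 and 0.36 and overlapped the controls. Lymphocyte and natural killer markers were called higher at spinal day 1 alone, 3 of 7, beside 15.8% of all genes.

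**Figure D3:**
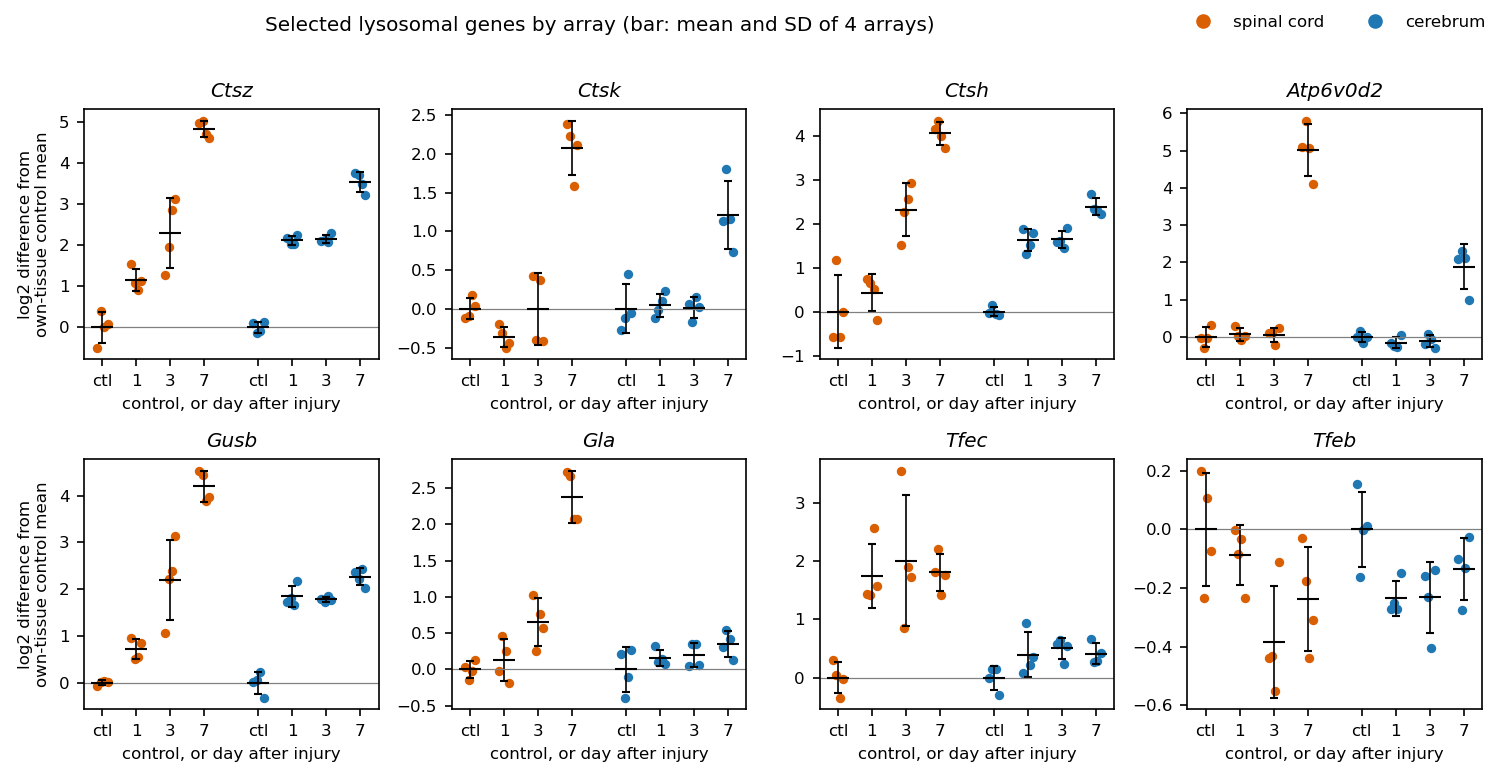
Log2 difference of 8 lysosomal genes from the mean of the 4 controls of the same tissue, 1 point per array, with the mean and SD of 4 arrays as bars, for control, day 1, day 3 and day 7 in spinal cord (left in each panel) and cerebrum (right). Ctsk and Atp6v0d2 stay near 0 until day 7, Tfec is high in spinal cord on all 3 days, and the 4 groups of Tfeb overlap in each tissue.

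Among the 3 measured aspartic and serine proteases, 3 rose at spinal day 7 (15.2% of all genes) and 2 at cerebral day 7 (4.5%). Ctsa, a serine carboxypeptidase that also shields neuraminidase and beta-galactosidase, stood at 2.95, 2.85, 2.54 and 2.45 on the spinal day 7 arrays, against -0.11, 0.22, -0.01 and -0.10 in the controls, a change of 2.70 ± 0.16. In cerebrum Ctsa was called at each day but did not climb, with 1.08 ± 0.16, 0.84 ± 0.16 and 0.85 ± 0.16 at day 1, 3 and 7. Tpp1, a tripeptidyl peptidase lost in a form of neuronal ceroid lipofuscinosis, rose at spinal day 7 (2.06 ± 0.17) and at cerebral day 1 (0.64 ± 0.17) and day 7 (0.97 ± 0.17). Ctse, an aspartic protease of endosomes, rose at spinal day 1 (0.52 ± 0.13) and day 7 (1.21 ± 0.13), and in cerebrum it lay between -0.06 and 0.10 on the 3 days.

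The 6 measured membrane proteins moved apart from each other. Laptm5, a lysosomal protein of blood-derived cells, stood at 4.36, 4.24, 3.49 and 3.52 on the spinal day 7 arrays, against 0.14, 0.22, -0.08 and -0.28 in the controls, a 15-fold difference (3.90 ± 0.23). The tetraspanin Cd63 rose on every day in both tissues, to 1.70 ± 0.11 at spinal day 7 and 1.58 ± 0.11 at cerebral day 7. Lamp2, a major glycoprotein of the lysosomal membrane, rose by 0.89 ± 0.12 at spinal day 7 and by 0.83 ± 0.12 at cerebral day 7. Lamp1, its relative, passed at spinal day 7 alone (0.53 ± 0.11). At cerebral day 7 Lamp1 was at 0.40 and did not pass. All its arrays lay above all controls there, as for 14% of all genes, but by less than the bound of the test. Quantile normalisation turned the Lamp1 value at spinal day 7 to -0.133.

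Scarb2, which carries glucocerebrosidase to lysosomes, went opposite ways at day 1. It stood at -0.73, -0.67, -0.37 and -0.28 on the spinal day 1 arrays, against -0.08, -0.10, 0.31 and -0.13 in the spinal controls, and at 0.88, 0.59, 0.53 and 0.60 on the cerebral day 1 arrays, against 0.15, 0.11, -0.01 and -0.25 in the cerebral controls. All spinal arrays of day 1 lay below their controls and all cerebral arrays above theirs, with changes of -0.51 ± 0.14 and 0.65 ± 0.14. By day 7 Scarb2 was higher by 1.36 ± 0.14 in spinal cord and 1.25 ± 0.14 in cerebrum.

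Mcoln1, a calcium channel of the lysosomal membrane, was the gene of the 44 that fell at day 1 in both tissues. It stood at -0.64, -0.76, -0.94 and -0.50 on the spinal day 1 arrays, against -0.06, 0.04, -0.06 and 0.08 in the controls, a change of -0.71 ± 0.10 (limma adjusted p = 2.69e-06). In cerebrum the change at day 1 was -0.31 ± 0.10, and the call was lost without cerebral control replicate 2 or 4 or cerebral day 1 replicate 2 or 4. At day 7 Mcoln1 was at -0.18 ± 0.10 in spinal cord and 0.37 ± 0.10 in cerebrum, and neither passed.

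Of the 9 measured glycosidases and sulfatase, 7 rose at spinal day 7 (15.2% of all genes) and 4 at cerebral day 7 (4.5%). Gusb, beta-glucuronidase, led them, with 4.53, 4.45, 3.88 and 3.96 on the spinal day 7 arrays, against -0.08, 0.02, 0.05 and 0.01 in the controls, an 18.4-fold difference (4.20 ± 0.23). In cerebrum it was already at 1.85 ± 0.23 at day 1 and reached 2.26 ± 0.23 at day 7. Its call at spinal day 1 (0.72 ± 0.23) was lost without spinal day 1 replicate 1 (0.64, limma adjusted p = 0.0553).

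Naglu and Hexa, which remove N-acetylglucosamine and N-acetylhexosamine residues, and Man2b1, a mannosidase, were high at spinal day 7 and not at spinal day 1. Naglu stood at 0.15, -0.14, -0.22 and -0.13 at spinal day 1 and at 4.31, 4.35, 3.65 and 3.46 at spinal day 7, against -0.02, 0.31, -0.33 and 0.04 in the controls. Its day 1 arrays overlapped the controls, and its day 7 arrays did not. Man2b1 was at -0.32 ± 0.16 at spinal day 1, which did not pass, and at 2.84 ± 0.16 at spinal day 7. Hexa was at -0.90, 1.48, 1.69 and 1.98 on the spinal day 3 arrays, with replicate 1 below the controls, and rose by 3.71 ± 0.34 at spinal day 7. In cerebrum at day 7, Naglu rose by 1.79 ± 0.20, Hexa by 1.76 ± 0.34 and Man2b1 by 0.86 ± 0.16.

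Gla, the galactosidase lost in Fabry disease, rose in spinal cord but passed at no day in cerebrum. It stood at 2.72, 2.66, 2.07 and 2.07 on the spinal day 7 arrays, against 0.04, -0.15, -0.02 and 0.13 in the controls. The cerebral day 7 arrays, at 0.31, 0.55, 0.42 and 0.13, overlapped the cerebral controls at 0.22, -0.39, -0.10 and 0.27. The change was 2.38 ± 0.17 in spinal cord and 0.35 ± 0.17 in cerebrum, and the spinal day 3 call (0.65 ± 0.17) was lost without spinal day 3 replicate 1 or 3.

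Galc and Arsa degrade the myelin lipids galactosylceramide and sulfatide. Galc stood at -0.71, -0.69, -0.38 and -0.38 at spinal day 1 and at 0.81, 0.81, 0.51 and 0.71 at spinal day 7, against 0.02, -0.19, 0.21 and -0.04 in the controls. It was below all controls at day 1 and above all at day 7, with changes of -0.54 ± 0.10 and 0.71 ± 0.10, and it passed at no day in cerebrum. Arsa rose at spinal day 7 by 0.63 ± 0.13. Of 6 measured oligodendrocyte markers, 3 were called lower at spinal day 1 (16.1% of all genes) and none passed at spinal day 7, also at an unadjusted p under 0.05. The sialidase Neu1 was higher early, by 0.56 ± 0.12 at spinal day 1 and 0.58 ± 0.12 at cerebral day 1. At day 7 it was at 0.35 ± 0.12 in spinal cord and -0.01 ± 0.12 in cerebrum, and neither passed. Gaa, which degrades glycogen, passed at cerebral day 1 alone (0.38 ± 0.10), and the call was lost without cerebral control replicate 3.

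Of the 8 genes of lipid handling, saposins and progranulin, 7 rose at spinal day 7 (15.2% of all genes) and 4 at cerebral day 7 (4.5%). Lipa, the acid lipase that frees cholesterol from its esters, stood at 3.87, 4.04, 3.72 and 3.29 on the spinal day 7 arrays, against -0.22, 0.26, -0.12 and 0.08 in the controls, a 13.3-fold difference (3.73 ± 0.19). On the spinal day 1 arrays it was at 0.07, -0.28, -0.27 and -0.41 and overlapped the controls. In cerebrum it rose by 1.82 ± 0.19 at day 7. Its calls at cerebral day 1 (0.59 ± 0.19) and spinal day 3 (0.80 ± 0.19) were not stable, the first being lost without any 1 of cerebral control replicates 1 and 3 and cerebral day 1 replicate 4, and the second without spinal day 3 replicate 4.

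Grn encodes progranulin, a secreted and lysosomal glycoprotein whose loss causes lysosomal storage and neurodegeneration. It stood at 0.43, 0.27, 0.45 and 0.57 on the spinal day 1 arrays, against -0.26, 0.46, -0.29 and 0.10 in the spinal controls, and at 1.78, 1.71, 1.54 and 2.06 on the cerebral day 1 arrays, against 0.02, -0.13, 0.22 and -0.11 in the cerebral controls. The spinal groups overlapped and the cerebral groups were apart. The change at day 1 was 0.43 ± 0.17 in spinal cord, a call lost without any 1 of spinal control replicates 1, 3 and 4 and spinal day 1 replicates 1, 3 and 4, and 1.77 ± 0.17 in cerebrum. By day 7 it was 2.81 ± 0.17 in spinal cord and 2.15 ± 0.17 in cerebrum.

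Npc1 and Npc2 hand cholesterol out of the lysosome. At spinal day 1, Npc1 was at -0.61 ± 0.15 and Npc2 at -0.38 ± 0.13, and both passed, although the call of Npc2 was lost without spinal control replicate 2 or 3. At day 7, Npc2 had risen by 1.72 ± 0.13 in spinal cord and 1.30 ± 0.13 in cerebrum, while Npc1 was at 0.47 ± 0.15 and -0.05 ± 0.15 and did not pass. Asah1, acid ceramidase, rose by 1.75 ± 0.14 at spinal day 7 and 0.77 ± 0.14 at cerebral day 7. Prosaposin (Psap), the thioesterase Ppt1 and acid sphingomyelinase (Smpd1) rose at spinal day 7, by 1.14 ± 0.08, 1.22 ± 0.12 and 0.66 ± 0.12. At cerebral day 7 their changes lay between 0.29 and 0.40 and did not pass. For each of them all cerebral day 7 arrays lay above all controls, as for 14% of all genes, but by less than the bound of the test.

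The largest change among all 44 genes was that of a proton pump gene. Atp6v0d2, the d2 subunit known from osteoclasts and macrophages, stood at 5.10, 5.80, 5.08 and 4.11 on the spinal day 7 arrays, against -0.02, -0.29, -0.03 and 0.33 in the spinal controls. On the cerebral day 7 arrays it stood at 2.11, 2.31, 2.13 and 0.99, against 0.00, 0.17, -0.17 and 0.00 in the cerebral controls. It was near the controls on every array of day 1 and day 3, from -0.29 to 0.30, and apart from them on every array of day 7. The fold change at day 7 was 32.5 in spinal cord (5.02 ± 0.23, limma adjusted p = 6.77e-17) and 3.69 in cerebrum (1.88 ± 0.23, limma adjusted p = 2.67e-06).

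The other pump members did not share this course. Atp6ap1, an accessory subunit, rose at spinal day 1 (0.97 ± 0.09), day 3 (0.77 ± 0.09) and day 7 (1.44 ± 0.09) and at cerebral day 1 (0.71 ± 0.09). Atp6v1a and Atp6v1h, subunits of the part that splits ATP, passed against control on no day in either tissue. Atp6v1a was at -0.34 ± 0.13 at spinal day 7 and 0.01 ± 0.13 at cerebral day 7, and Atp6v1h at -0.21 ± 0.14 and 0.02 ± 0.14. Of 13 further pump subunits measured, 6 rose at spinal day 7 (15.2% of all genes) and 2 at cerebral day 7 (4.5%).

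Of the 3 MiT/TFE factors on the list, Tfec rose in spinal cord on all 3 days. Its spinal day 1 arrays read 1.44, 1.42, 2.57 and 1.57. The day 3 arrays read 3.55, 0.85, 1.91 and 1.73, and the day 7 arrays 1.82, 2.22, 1.43 and 1.76, against 0.30, 0.06, -0.34 and -0.01 in the spinal controls. Every injured spinal array lay above every control, with the highest value in day 3 replicate 1. In cerebrum the change of Tfec lay between 0.40 and 0.50 on the 3 days and did not pass. Its standard error of 0.32 comes from a spread pooled over all 8 groups, the spinal ones included. All cerebral arrays of day 3 and of day 7 lay above all cerebral controls, but by less than the bound of each day, and those of day 1 overlapped them. At cerebral day 7 such an order held for 14% of all genes, and the share at day 3 is not given here. Mitf rose at spinal day 7 alone (0.72 ± 0.15). Tfe3, the family member outside the list and named after its values were seen, was higher in spinal cord at day 1 (0.37 ± 0.10), day 3 (0.48 ± 0.10) and day 7 (0.96 ± 0.10), and passed at no day in cerebrum. Tfeb, the best known regulator of lysosomal genes, passed against control on no day, and all its injured arrays lay below 0, down to -0.55 in spinal cord and -0.40 in cerebrum, with each injured group overlapping its controls. In cerebrum limma called none of the 3 listed factors on any day, and at an unadjusted p under 0.05 the count was 1, Tfeb at day 1 (-0.24 ± 0.11).

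The difference between the injury responses of the tissues, spinal minus cerebral, changed direction over the week. At day 1, 2 of the 44 genes had a higher response in spinal cord (4.7% of all genes) and 16 a lower one (6.58%), with a median difference of -0.404. At day 3, 3 were higher (4.08%) and 1 lower (5.19%). At day 7, 24 were higher (13%) and 1 lower (14.6%), with a median difference of 0.744. Cell type markers moved in the same contrasts, and their part was not tested. At day 1 the spinal response was lower for 6 of 6 oligodendrocyte, 4 of 6 astrocyte, 5 of 8 microglia and 4 of 6 skeletal muscle markers. It was higher then for 4 of 6 hypothalamus and pituitary and 2 of 7 neutrophil markers. Of 8 monocyte and macrophage markers, 1 was higher and 1 lower at day 1. At day 3 the spinal response was lower for 6 of 6 oligodendrocyte, 3 of 6 astrocyte and 2 of 6 skeletal muscle markers. It was higher then for 3 of 6 hypothalamus and pituitary, 2 of 8 monocyte and macrophage and 1 of 8 microglia markers. At day 7 it was higher for 5 of 8 monocyte and macrophage, 6 of 7 neutrophil and 3 of 5 fibroblast markers. It was also higher then for 2 of 6 hypothalamus and pituitary and 1 of 6 osteoclast markers. It was lower for 5 of 6 neuron, 5 of 6 oligodendrocyte, 2 of 6 skeletal muscle and 1 of 6 astrocyte markers. Of 8 microglia markers, 2 were higher and 1 lower at day 7. Genes of the 44 whose response was larger in spinal cord numbered 8, 25 and 38 at day 1, 3 and 7. That count is not given here over all genes, whose median difference was 0.034 at day 1 and -0.015 at day 3. Across the 44 genes, the spinal and cerebral changes had a Pearson r of 0.494 at day 1, 0.85 at day 3 and 0.862 at day 7 (Spearman rho 0.451, 0.884 and 0.864). Over all genes the Pearson r was 0.411, 0.625 and 0.667. These values are a description over genes of the same arrays, and at day 3 and day 7 both tissues share the rebuilt offset of a probe.

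The day 7 direction changed with quantile normalisation, and the cause was not tested. The spread over all genes was wider on the spinal day 7 arrays, with an SD of 0.788 to 0.908, than on the cerebral day 7 arrays, with an SD of 0.387 to 0.415. Quantile normalisation, which forces all arrays to 1 distribution, left 12 calls at day 7, 4 higher and 8 lower in spinal cord, with a median of -0.163. Of the 24 genes called higher, 14 took the other sign under it and 4 passed as higher. Centring each array on its 75th percentile left 23 higher and 2 lower.

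**Figure D4:**
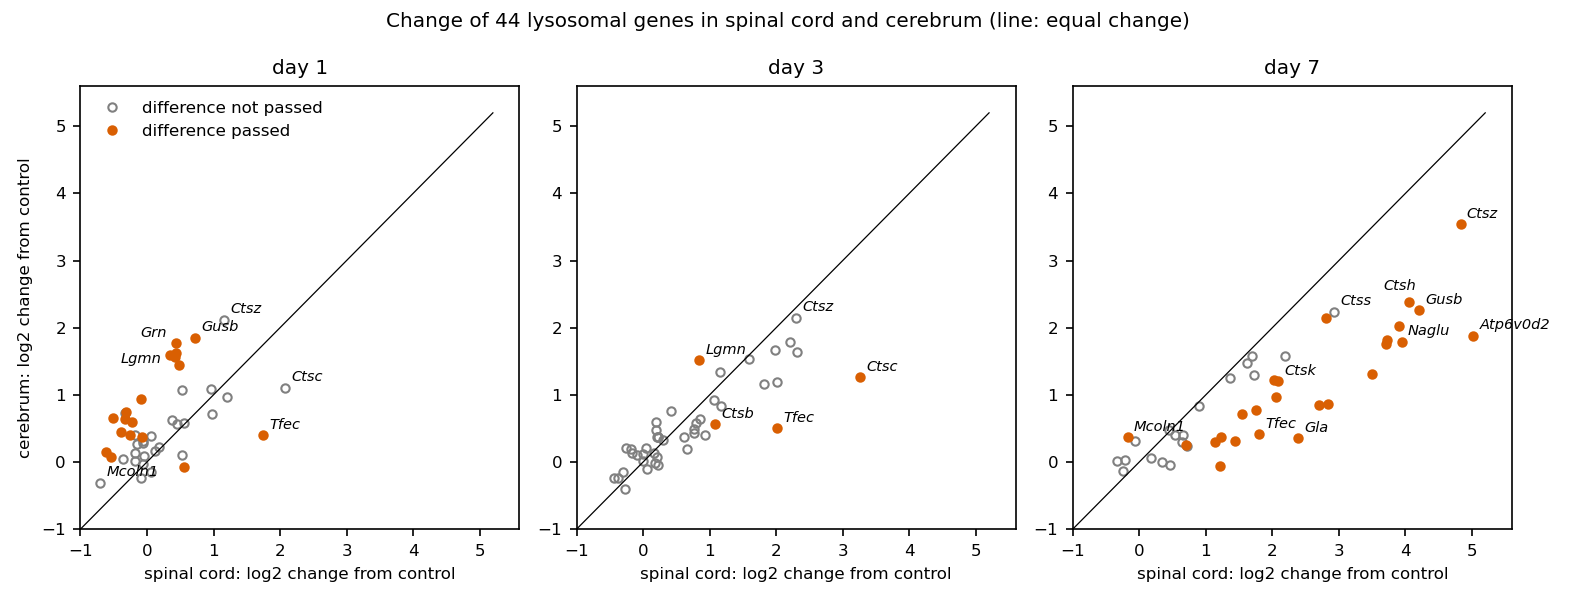
Log2 change from control of 44 lysosomal genes in spinal cord (x axis) and cerebrum (y axis) at day 1, 3 and 7, orange where the difference between tissues passed, with a line of equal change. At day 1, 16 of the orange genes lie above the line, toward cerebrum, and at day 7, 24 lie below it, toward spinal cord, a direction that quantile normalisation turns for 14 of these 24.

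Among genes with a lower spinal response at day 1, the largest differences were those of Grn (-1.34 ± 0.24, limma adjusted p = 0.000376), Lgmn (-1.25 ± 0.13), Ctsh (-1.19 ± 0.38), Scarb2 (-1.16 ± 0.20), Laptm5 (-1.14 ± 0.33) and Gusb (-1.13 ± 0.33). All 6 genes of lipid handling that passed, Npc1, Npc2, Lipa, Psap, Grn and Asah1, had the lower response in spinal cord, and so had the 4 glycosidases that passed, Gusb, Galc, Man2b1 and Naglu. The 2 genes with a higher spinal response were Tfec (1.35 ± 0.45) and Ctsw (0.62 ± 0.16). The calls of Ctsh, Ctss, Gusb, Lipa, Asah1 and Tfec were lost without 1 array or another, Ctsh moving to -0.80 without spinal control replicate 2 and Tfec to 1.08 without spinal day 1 replicate 3. With cerebral controls 1 and 2 alone, 9 genes passed.

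At day 3 the 4 genes that passed were Ctsc (2.0 ± 0.34), Tfec (1.51 ± 0.45), Ctsb (0.52 ± 0.17) and Lgmn (-0.68 ± 0.13). Ctsc and Lgmn passed without each single array, and 2 genes passed without cerebral control replicate 3, cerebral day 3 replicate 3 or spinal control replicate 3. The call of Tfec was lost without spinal day 3 replicate 1 (0.99, limma adjusted p = 0.0574), although 6 genes passed then. It was also lost without cerebral control replicate 2 or 3, cerebral day 3 replicate 3 or spinal control replicate 3. The call of Ctsb was lost without cerebral control replicate 1, 3 or 4 or any cerebral day 3 array. It was also lost without spinal control replicate 1 or 3 or spinal day 3 replicate 3 or 4.

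At day 7 the largest differences were those of Atp6v0d2 (3.14 ± 0.33), Ctsc (2.18 ± 0.34), Naglu (2.15 ± 0.28), Gla (2.03 ± 0.24), Man2b1 (1.98 ± 0.22), Hexa (1.95 ± 0.48), Gusb (1.94 ± 0.33) and Lipa (1.91 ± 0.27). Of these, Atp6v0d2, Ctsc, Gla and Man2b1 kept a higher spinal response under quantile normalisation, and Hexa, Gusb, Naglu and Lipa took the other sign, at -0.249, -0.275, -0.146 and -0.343. Mcoln1 was the 1 gene with a lower spinal response (-0.55 ± 0.14). Several genes with large rises in both tissues did not differ past the test, among them Ctss (0.69 ± 0.29, with a 95% interval of 0.10 to 1.28 before adjustment), Lgmn (0.15 ± 0.13, interval -0.12 to 0.42) and Cd63 (0.12 ± 0.16, interval -0.20 to 0.45). Quantile normalisation also turned these 3 genes. Grn (0.66 ± 0.24) was lost without any 1 of 7 arrays, Galc (0.46 ± 0.15) without cerebral control replicate 1 or spinal control replicate 2, and Ctsk (0.87 ± 0.28) without cerebral control replicate 3 or cerebral day 7 replicate 4.

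**Figure D5:**
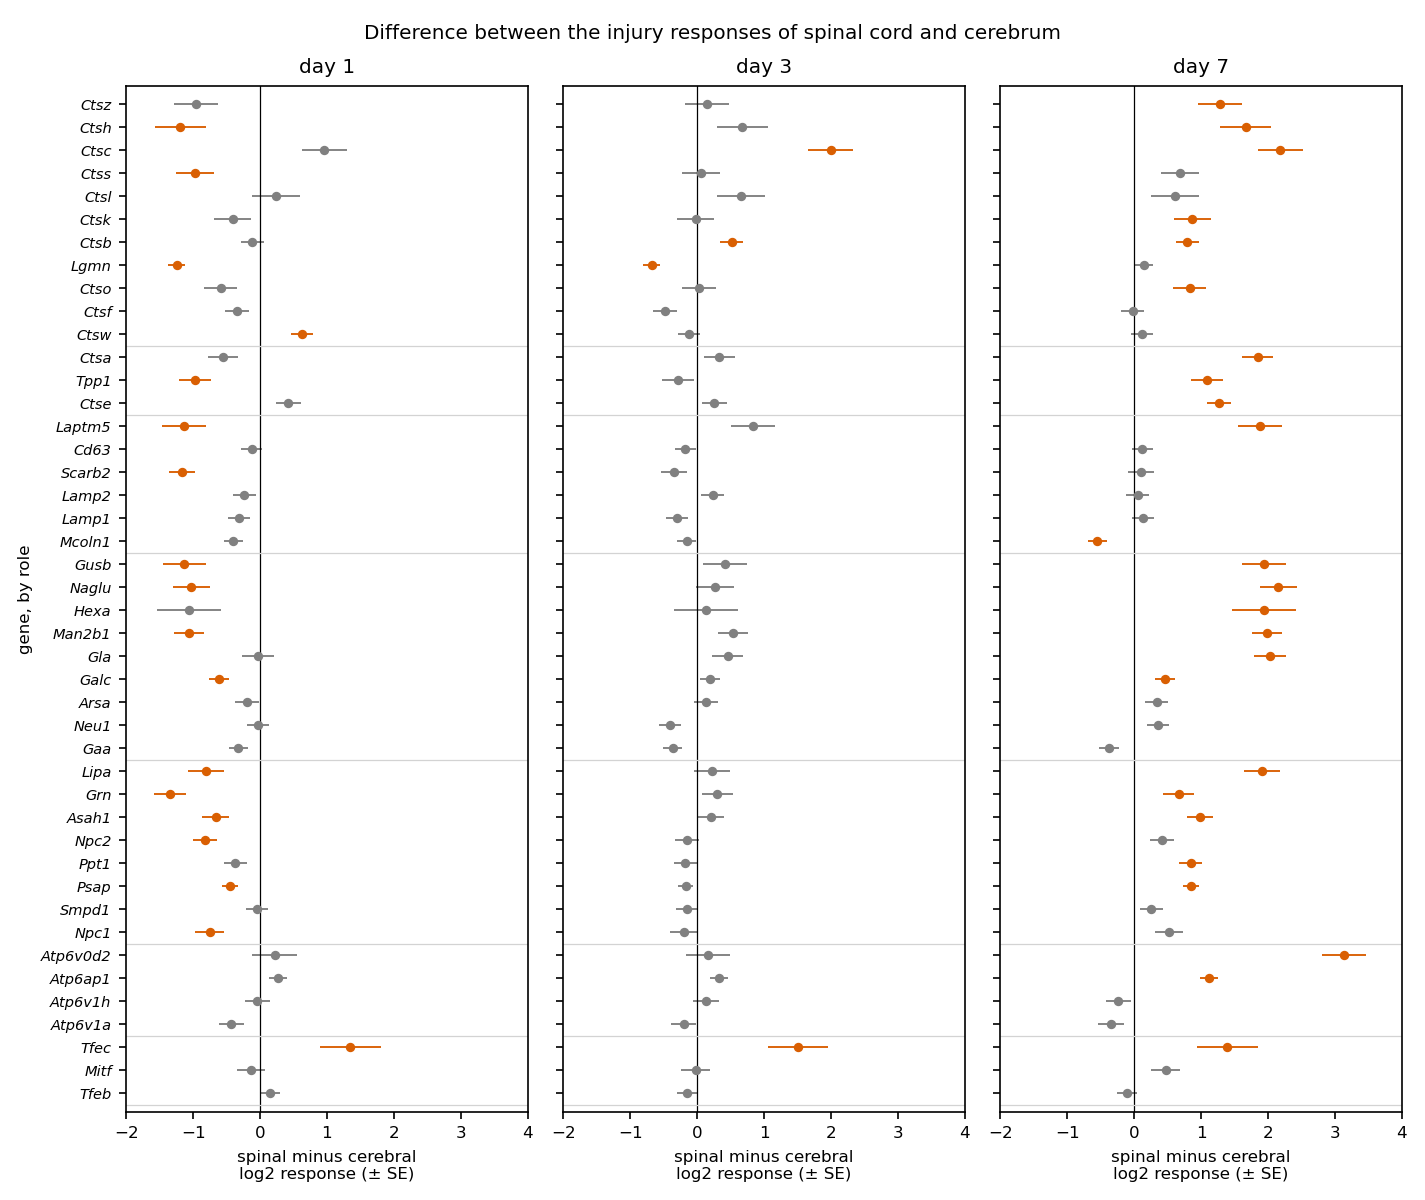
Spinal minus cerebral log2 response of each of 44 lysosomal genes (rows, by role) at day 1, 3 and 7, with the standard error as a bar and orange where the difference passed. Orange points lie left of 0 for 16 of 18 genes at day 1 and right of 0 for 24 of 25 at day 7, and under quantile normalisation 14 of those 24 change sign.

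The tissues also differed before injury. In spinal controls 17 of the 44 genes were higher than in cerebral controls (17.2% of all genes) and 4 lower (17.6%). Scarb2 led with 1.60 ± 0.14, followed by Lgmn (1.40 ± 0.09), Ctsk (1.28 ± 0.20) and Lamp1 (1.28 ± 0.11). The cholesterol exporters Npc1 (1.00 ± 0.15) and Npc2 (0.99 ± 0.13) and the myelin lipid enzyme Galc (0.56 ± 0.10) were higher too, beside the oligodendrocyte markers given above. The 4 lower genes were Atp6ap1 (-0.46 ± 0.09), Smpd1 (-0.46 ± 0.12), Ctsf (-0.45 ± 0.12) and Atp6v1h (-0.37 ± 0.14). Of the further pump subunits, 10 of 13 were lower, Atp6v1d by -1.14 ± 0.11, and 3 of 6 neuron markers were higher and 2 lower. The calls of Ctsh, Ctsl, Gusb, Asah1 and Atp6v1h were lost without 1 array or another, Ctsh at 0.55 without spinal control replicate 2.

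More genes passed between day 1 and day 7 in spinal cord than in cerebrum. At spinal day 7, 35 of the 44 genes were higher than at spinal day 1 (13.9% of all genes) and limma called 0 lower (13.7%), with 1 lower at an unadjusted p under 0.05. At cerebral day 7, 8 were higher than at cerebral day 1 (1.55%) and 1, Neu1, lower (1.32%). The 8 were Atp6v0d2 (2.03 ± 0.23), Ctsz (1.42 ± 0.24), Lipa (1.23 ± 0.19), Ctsk (1.16 ± 0.20), Npc2 (0.86 ± 0.13), Naglu (0.85 ± 0.20), Mcoln1 (0.68 ± 0.10) and Ctsb (0.65 ± 0.12). In spinal cord Atp6v0d2 (4.96 ± 0.23), Hexa (4.04 ± 0.34), Naglu (4.03 ± 0.20) and Lipa (3.95 ± 0.19) had the largest rises from day 1. Mcoln1 rose from day 1 in spinal cord as well (0.53 ± 0.10). In cerebrum the calls of Ctsb, Naglu and Neu1 were lost without 1 array or another, and 2 genes passed on the deposited values, against 15 when arrays were weighted.

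Promoter motifs were set beside the day 7 changes. At day 7 the 11 genes with CACGTG had a median change of 0.634 in spinal cord and 0.397 in cerebrum, and the 25 without it had medians of 1.72 and 0.969. The 4 genes with TCACGTGA spanned the list, from Ctsa (2.70 in spinal cord) and Gla (2.38) to Mcoln1 (-0.18) and Atp6v1a (-0.34). The 4 genes with GAGGAAGT, Gla, Gusb, Ctss and Ctsc, had a median change of 3.21 in spinal cord and 1.78 in cerebrum, and the 32 without it had medians of 1.49 and 0.774. These values describe 36 promoters and carry no test.

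Other genes of the lysosome, from a list chosen like the first with earlier results known, were counted the same way. Of 29 measured, 20 were higher (15.2% of all genes) and 3 lower (16.6%) at spinal day 7, and 6 were higher (4.5%) at cerebral day 7. At spinal day 1, 5 of the 29 were higher and 5 lower, shares near the 15.8% and 16.1% of all genes. The largest changes over all further lists at spinal day 7 were those of Galns, a sulfatase (3.83 ± 0.18), Scpep1, a serine carboxypeptidase (3.51 ± 0.18), and Acp5, the tartrate-resistant acid phosphatase (3.37 ± 0.27). The 3 that fell there were Laptm4b (-0.77), Ids (-0.56) and Abcb9 (-0.53), named after their values were seen.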

How the data were processed

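RNA from cerebrum and spinal cord was measured on 32 arrays. Per the labels' protocols, tissue was snap frozen, RNA taken up in TRIzol and 10 ng of it given a biotin label. The sources used here do not name the software. The authors deposited log2 values (the scale was inferred from their range, -5.582 to 8.042), centred per probe. Controls and day 1 (16 arrays) share 1 centre, and the values fall into 3 parts, with the 8 arrays of day 3 and of day 7 each centred with the 8 controls as partners, which matched in 86.9% of 5646 and 86.4% of 5147 probes tested. With the day 1 or the day 7 arrays as partners instead, 69.3% and 68.7% matched for day 3. For day 7, 70.3% matched with the day 1 arrays and 69.8% with the day 3 arrays. The offset of each probe was rebuilt from the match with the controls, as a value or a range. Day 3 and day 7 against control, and day 7 against day 1, had to exceed the distance from the middle of that range to its end, plus an allowance (2 times the 95th percentile of the shortfalls, 0.162 and 0.178), a rule chosen after the files were seen. Of 22206 probes, 19572 carry 1 symbol, giving 19505 genes, with a mean taken over the probes of 55 genes.

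The limma model held 8 group means over all arrays, leaving 24 residual degrees of freedom. It was tested on simulated data, and 12 comparisons were made. The members and lists were chosen with earlier results of these data known. Every listed gene with a probe could be named, and those described array by array were picked after their values were seen. Of the further lists together, the rule names the 3 largest changes that passed in a comparison, and any other gene is marked as chosen later. Alternatives were quantile normalisation on top, 75th percentile scaling, array weights, the probe with the largest SD, subsets of the controls, the values as deposited, the offset taken as exact and each array left out. Background correction, a filter on dim probes and a slide or scan block need scanner values, which are not used here. Promoters came from RefSeq, and no protein sequence was used here. Tools were R 4.3.3, limma 3.58.1, matrixStats 1.5.0, Python 3.11.15, numpy 2.4.6, pandas 2.3.3 and matplotlib 3.10.9.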

Additional observations from a re-analysis of the deposited data

Results flagged for a closer look

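Within some groups of 4 arrays, 1 array stood apart for a gene, its gap to the next array taking up most of the range of the group. This was so for 25 of 352 sets of 4 arrays (7.1%), and chance alone marks about 1 set in 20. Values are log2 differences from the mean of the controls of the same tissue. At spinal day 1 these were Arsa on replicate 1 (-0.04) and Tfec on replicate 3 (2.57). Among the spinal day 3 arrays they were Ctsl on replicate 1 (2.42) and Lgmn on replicate 4 (1.06). Spinal day 7 had Ctsf on replicate 1 (0.24), Neu1 on replicate 1 (0.66), Atp6v1a on replicate 1 (-0.0864), Atp6v1h on replicate 4 (-0.36) and Ppt1 on replicate 1 (1.58). The spinal controls had Ctss on replicate 3 (0.24), Lamp1 on replicate 3 (0.18), Tpp1 on replicate 3 (0.13) and Scarb2 on replicate 3 (0.31). At cerebral day 1 they were Galc on replicate 2 (-0.14), Atp6ap1 on replicate 4 (0.51), Smpd1 on replicate 3 (0.0932) and Lgmn on replicate 1 (1.79). Cerebral day 3 had Ctse on replicate 2 (-0.38) and Psap on replicate 1 (0.24). Among the cerebral day 7 arrays they were Gaa on replicate 4 (0.43) and Atp6v0d2 on replicate 4 (0.99). The cerebral controls had Ctsh on replicate 2 (0.16), Galc on replicate 1 (0.23), Psap on replicate 4 (0.0534) and Asah1 on replicate 4 (-0.40). Of these, 4 fell on spinal day 7 replicate 1 and 4 on spinal control replicate 3.

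The response to injury differed between the tissues, by limma's test of the difference (spinal minus cerebral, adjusted p under 0.05 over all genes), for the genes below. At day 1 the response in spinal cord was lower for Grn (-1.34), Lgmn (-1.25), Ctsh (-1.19), Scarb2 (-1.16), Laptm5 (-1.14), Gusb (-1.13), Man2b1 (-1.06), Naglu (-1.03), Ctss (-0.98), Tpp1 (-0.97), Npc2 (-0.83), Lipa (-0.81), Npc1 (-0.75), Asah1 (-0.66), Galc (-0.61) and Psap (-0.45). It was higher at day 1 for Ctsw (0.62) and Tfec (1.35). At day 3 the 4 differences were those of Lgmn (-0.68), Ctsb (0.52), Tfec (1.51) and Ctsc (2.0). At day 7 the response in spinal cord was lower for Mcoln1 (-0.55). It was higher at day 7 for Galc (0.46), Grn (0.66), Ctsb (0.80), Ctso (0.83), Ppt1 (0.85), Psap (0.85), Ctsk (0.87), Asah1 (0.99), Tpp1 (1.09), Atp6ap1 (1.12), Ctse (1.27), Ctsz (1.29), Tfec (1.40), Ctsh (1.67), Ctsa (1.85), Laptm5 (1.88), Lipa (1.91), Gusb (1.94), Hexa (1.95), Man2b1 (1.98), Gla (2.03), Naglu (2.15), Ctsc (2.18) and Atp6v0d2 (3.14). Of these 24, 14 took the other sign under quantile normalisation.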

How the results depend on the processing

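Of the 35 calls at spinal day 7, 28 held under every alternative run, as did 20 of 24 at cerebral day 7 and 5 of 25 for the day 7 difference between tissues. Leaving out 1 array at a time, calls numbered 17 to 20, 18 to 22 and 35 to 36 at spinal day 1, 3 and 7, and 21 to 24, 12 to 16 and 23 to 24 in cerebrum. For the difference between tissues they numbered 13 to 20, 2 to 6 and 23 to 27, for day 7 against day 1 33 to 35 in spinal cord and 6 to 8 in cerebrum, and for the controls 18 to 23. An exact offset gave 24 calls at cerebral day 3 against 15, and cerebral day 7 against day 1 had 14 against 9. That last comparison had 2 calls with the values as deposited, 14 with quantile normalisation and 15 with array weights. With cerebral controls 1 and 2 alone, the tissue difference had 9 calls against 18 at day 1 and 2 against 4 at day 3, and the controls 13 against 21. Quantile normalisation left 12 of the day 7 differences, 4 higher and 8 lower in spinal cord. The cause of these shifts was not tested.

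Quantile normalisation turned the sign of Lamp1 at spinal day 7 (-0.133) and of Cd63 in spinal cord between day 7 and day 1 (-0.127). In the day 7 difference between tissues it turned Ctsb (-0.248), Ctsh (-0.476), Ctsk (-0.772), Ctso (-0.00712), Ctss (-1.02), Ctsz (-1.01), Lgmn (-0.495), Laptm5 (-0.269), Cd63 (-0.772), Scarb2 (-1.14), Hexa (-0.249), Gusb (-0.275), Galc (-0.142), Naglu (-0.146), Npc2 (-0.895), Lipa (-0.343), Grn (-0.808), Asah1 (-0.134) and Tpp1 (-0.149).

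Over all genes, calls at cerebral day 7 numbered 1284, and 740 to 4340 under the alternatives, at cerebral day 3 1235 and 637 to 3888, and at cerebral day 1 3341 and 1719 to 5256. At spinal day 7 they numbered 6200 and 3460 to 9754, and at spinal day 3 3889 and 2343 to 7470. The difference had 2200 calls at day 1 and 1056 with cerebral controls 1 and 2 alone, 1808 at day 3 and 873 there, and 5382 at day 7 and 3239 with quantile normalisation. Day 7 against day 1 had 5384 calls and 1980 to 9661 in spinal cord, and 561 in cerebrum, from 314 without cerebral day 7 replicate 2 to 2962 with the offset exact. The split of the members also moved, to 22 higher and 3 lower at spinal day 3 with the offset exact, 0 and 14 for the day 1 difference with cerebral controls 3 and 4 alone, and 2 and 2 or 1 and 3 for the day 3 difference with 75th percentile scaling or quantile normalisation. No paired analysis was possible because the replicate numbers were given in accession order and the labels pair no arrays. The signal over background of a probe, and so the precision of weakly expressed genes, cannot be read from centred values.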

Other observations

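Of 8 measured genes listed for sorting and maturation of lysosomal enzymes, 5 were higher at spinal day 7 (15.2% of all genes), and limma called 0 at cerebral day 7, with 2 higher at an unadjusted p under 0.05. The 5 were Nagpa, which uncovers the mannose 6-phosphate tag (1.58 ± 0.16), Igf2r, the large mannose 6-phosphate receptor (1.57 ± 0.17), M6pr, the small one (1.05 ± 0.11), Tfe3, a transcription factor related to Tfeb (0.96 ± 0.10), and Sumf1, which activates sulfatases (0.88 ± 0.16). These 5 genes were named after their values were seen.

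Inhibitors of cathepsins were among the largest changes of the further lists. Of 4 measured, 3 were higher at spinal day 7 (15.2% of all genes) and 2 at cerebral day 7 (4.5%). At cerebral day 1 and again at cerebral day 3, 1 was higher and 1 lower. Cstb, the cytosolic cystatin B, rose by 1.00 ± 0.23 at spinal day 1, 1.49 ± 0.23 at spinal day 3, 1.02 ± 0.23 at cerebral day 3 and 1.76 ± 0.23 at cerebral day 7. Cst7, a cystatin of leukocytes and activated microglia, rose by 0.82 ± 0.28 at cerebral day 1 and 2.62 ± 0.28 at cerebral day 7. At spinal day 7 they stood at 3.06 ± 0.23 and 2.60 ± 0.28, values added after they were seen.

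The other genes among the 3 largest changes were lysosomal hydrolases and their helpers. They were Galns (0.79 ± 0.18) and Idua (-0.66 ± 0.13) at spinal day 1, Plbd1 (1.53 ± 0.27) and Scpep1 (1.44 ± 0.18) at spinal day 3, Pla2g15 (0.74 ± 0.13) and Gm2a (0.73 ± 0.14) at cerebral day 1, Fuca1 (0.76 ± 0.10) and Aga (0.57 ± 0.11) at cerebral day 3, and Scpep1 (1.51 ± 0.18) at cerebral day 7. Of the pump subunits, Atp6v0e rose by 2.85 ± 0.16 at spinal day 7 and 1.45 ± 0.16 at cerebral day 7, and Tcirg1, the a3 subunit of osteoclasts, rose by 2.53 ± 0.12 at spinal day 7 and stood at 0.50 ± 0.12 at cerebral day 7, which did not pass. Both were named after their values were seen, and the alternatives were not run for these lists gene by gene.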
